A study of Rattus norvegicus with 15 samples.

Results

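The guide arms of the microRNA family miR-30 were followed through 14 days after injury of the rat sciatic nerve. They are rno-miR-30a, rno-miR-30b-5p, rno-miR-30c, rno-miR-30d and rno-miR-30e, taken by name from the array annotation, and they make up 5 of the 350 miRNAs on the array. All 5 were detected on all 15 arrays and are among the 231 miRNAs tested. They were chosen by name, and earlier results of these data were known when the family was picked.

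A miRNA is a short RNA that pairs with messenger RNAs mainly through its seed, bases 2 to 8, and lowers their translation and stability. Its hairpin precursor gives a guide arm, which is loaded into Argonaute, and a passenger arm, which is mostly degraded. The miR-30 guides share a seed and so share many predicted targets. The family is known for repressing connective tissue growth factor, for restraining epithelial-mesenchymal transition, for targeting Delta-like 4 in vessels and for targeting the autophagy gene Beclin 1.

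Total RNA came from sciatic nerve of adult male rats. There were 5 groups with 3 arrays in each, day 0 and groups at 1, 4, 7 and 14 days after injury. Day 0 is normal nerve that was not crushed in the treatment text, whereas the sample names place it at 0 h after injury in a proximal stump. The labels do not describe the injury in one way: a resection with proximal tissue is given in one place, and a crush with the damaged section in another. No transgene, allele or drug is named for any group. Nothing in the labels says which samples came from separate animals, so each p-value reflects only how far these samples vary, which may be technical.

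The mature sequences are shown because the family is defined by them, and because near-identical guides are hard for short probes to tell apart. They are from RefSeq on build GRCr8, 5′ to 3′, with the seed in capitals. Of the 5 guides, 3 were matched by name in that table, and the guide of rno-miR-384-5p, a miRNA outside the family by name, carries the same seed.
rno-miR-30a: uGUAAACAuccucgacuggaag
rno-miR-30e: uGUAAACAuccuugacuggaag
rno-miR-30c: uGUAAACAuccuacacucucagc
rno-miR-384-5p: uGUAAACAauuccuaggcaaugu
The guide of rno-miR-30a lies at chr9:33233946-33233967 on the plus strand, in the hairpin gene Mir30a. That of rno-miR-30e lies at chr5:139637504-139637525 on the minus strand, in Mir30e. The guide of rno-miR-30c is encoded by both Mir30c1 (chr5:139634505-139634527, minus strand) and Mir30c2 (chr9:33253695-33253717, plus strand), so its signal sums both genes. The guide of rno-miR-384-5p lies at chrX:74490939-74490961 on the minus strand.

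Counted from the 5′ end, rno-miR-30a and rno-miR-30e differ by 1 substitution, C13U. The first 12 bases of rno-miR-30c are those of rno-miR-30a and rno-miR-30e. With rno-miR-384-5p the match ends after the first 8 bases. The 6 hairpin genes form 3 neighbouring pairs with 0 annotated genes between them: Mir30a with Mir30c2, Mir30c1 with Mir30e inside the span of Nfyc, which encodes a subunit of the transcription factor NF-Y, and Mir30b with Mir30d inside the span of the uncharacterised LOC102551574. Signals of such close relatives may share hybridisation, which was not tested, so their values are not independent.

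All 5 guides were lower on days 4 and 7 than on day 0, by 0.55 to 0.95 on the log2 scale on day 4 and by 0.45 to 0.82 on day 7. On day 1 rno-miR-30b-5p and rno-miR-30c were lower by 0.35 each, while rno-miR-30d had a value 0.14 above day 0 that did not pass the test. On day 14 the calls divided. The guides rno-miR-30b-5p, rno-miR-30c and rno-miR-30d were still lower than on day 0, whereas rno-miR-30e and rno-miR-30a had changes of -0.07 and -0.28 that did not pass. Levels are background-subtracted intensities divided by a per-array percentile and put on the log2 scale, and log2 changes carry standard errors (SE) with n = 3 arrays per group. Adjusted p-values are from limma with Benjamini-Hochberg adjustment over the 231 tested miRNAs, and a change passed when its adjusted p was under 0.05.

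Array quality touches these results at 2 points. Day 14 replicate 3 stood apart, with 172 miRNAs detected against 200 to 239 on the other arrays, so values without it are given where it changes a call, a direction or the calls over all miRNAs, and for the guides' changes on day 14. Day 0, day 1 and day 4 were each on a slide of their own, and day 0 and day 1 were also scanned on dates of their own, so in any comparison with day 0, day 1 or day 4, time and slide cannot be told apart. Day 7 shared a slide with day 14 replicates 1 and 2, whereas day 14 replicate 3 had a slide and a scan date of its own. The 100 spots of the 5 guides held 0 to 8 outlier spots per array, and the dimmest guide was at least 12.2 times its local background. The guides' summed signal was 2.64% to 3.06% of all miRNA signal on the arrays of days 0 and 1, 2.08% to 2.30% on those of days 4 and 7 and 2.48% to 2.85% on those of day 14.

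Scaled log2 levels of rno-miR-30a were 1.16, 1.34 and 1.46 on the 3 arrays of day 0 and 1.10, 1.40 and 1.14 on those of day 1. They were 0.69, 0.56 and 0.58 on day 4, 0.72, 0.67 and 0.69 on day 7, and 0.74, 1.31 and 1.08 on day 14. Every array of days 4 and 7 lay below every array of days 0 and 1, while the day 14 arrays spread from just above the day 7 values into the day 0 range. The fall was 0.71 ± 0.13 on day 4 (1.64-fold lower, adjusted p = 0.000368) and 0.63 ± 0.13 on day 7 (adjusted p = 0.000951). With quantile normalisation these changes were -0.15 (adjusted p = 0.185) and -0.11 (adjusted p = 0.375), and from the authors' deposited value table -0.12 and -0.09, so the fall of rno-miR-30a depends on the scaling. The change on day 1 was -0.11 ± 0.13, with a 95% confidence interval of -0.40 to 0.18, and that on day 14 was -0.28 ± 0.13, with an interval of -0.56 to 0.01. Both were positive under quantile normalisation, with the 75th percentile over all miRNAs and from the deposited values, and the day 14 change also with no scaling. On day 1 the quantile-normalised change of 0.26 passed as a rise (adjusted p = 0.0356). Without day 14 replicate 3 the changes were 0.10 on day 1 and -0.20 on day 14 and did not pass, whereas the day 14 change passed as a fall without day 0 replicate 1 (-0.36) or day 14 replicate 2 (-0.41).

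The guide rno-miR-30c, made by both Mir30c1 and Mir30c2, fell the most of the 5 on day 4 in the main scaling. With quantile normalisation its day 4 change was -0.43, against -0.64 for rno-miR-30b-5p and -0.51 for rno-miR-30d. In the deposited table these changes were -0.42, -0.63 and -0.52, so the ranking depends on the scaling. Levels of rno-miR-30c were 1.42, 1.66 and 1.74 on day 0 and 1.16, 1.42 and 1.20 on day 1. They were 0.72, 0.63 and 0.62 on day 4, 0.83, 0.75 and 0.78 on day 7 and 0.84, 1.17 and 1.08 on day 14. All 9 arrays from day 4 on lay below all day 0 arrays, and day 1 overlapped day 0 by a narrow margin. The fall was 0.95 ± 0.11 on day 4 (1.93-fold lower, adjusted p = 7.73e-06), 0.82 ± 0.11 on day 7 (adjusted p = 2.92e-05) and 0.58 ± 0.11 on day 14 (adjusted p = 0.000573). Of the 231 tested miRNAs, 18 had a lower change than rno-miR-30c on day 4. The day 1 fall, 0.35 ± 0.11 (adjusted p = 0.0159), shrank to 0.03 with quantile normalisation and to 0.13 without day 14 replicate 3, and passed in neither. The day 14 fall did not pass with quantile normalisation (-0.14, adjusted p = 0.156), with no scaling (-0.19) or in the deposited table (-0.16), and was -0.51 without day 14 replicate 3 (adjusted p = 0.00474).

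The guide rno-miR-30e, which differs from rno-miR-30a by the single base above, was at -0.73, -0.62 and -0.49 on day 0 and at -0.92, -0.70 and -0.94 on day 1. Its levels were -1.11, -1.20 and -1.17 on day 4, -1.03, -1.07 and -1.07 on day 7, and -0.85, -0.51 and -0.68 on day 14. Days 4 and 7 lay below all other arrays, and day 14 overlapped day 0. The fall was 0.55 ± 0.10 on day 4 (1.46-fold lower, adjusted p = 0.000345) and 0.45 ± 0.10 on day 7 (adjusted p = 0.00168). The day 7 change was -0.09 with the 75th percentile taken over all miRNAs and -0.21 in the deposited table, and passed in neither. The day 1 change of -0.24 ± 0.10 did not pass (adjusted p = 0.0547), but passed with no scaling (-0.39) and with the slide as a random block (adjusted p = 0.0397), and was -0.03 without day 14 replicate 3. On day 14 the change was -0.07 ± 0.10 with an interval of -0.29 to 0.15. Its direction depended on the scaling: it was 0.29 with the 75th percentile over all miRNAs (adjusted p = 0.0014) and 0.32 with no scaling (adjusted p = 0.036), and 0.03 without day 14 replicate 3 (adjusted p = 0.88).

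The guide rno-miR-30b-5p stayed low to the last time. Its levels were 0.33, 0.64 and 0.77 on day 0, 0.07, 0.42 and 0.19 on day 1, and -0.08, -0.21 and -0.04 on day 4. They were -0.02, -0.01 and -0.01 on day 7 and -0.10, 0.05 and -0.10 on day 14. All 9 arrays from day 4 on were below every day 0 array, and the day 1 arrays lay between and partly across. The fall was 0.68 ± 0.12 on day 4 (1.61-fold lower, adjusted p = 0.000204), 0.58 ± 0.12 on day 7 (adjusted p = 0.000675) and 0.63 ± 0.12 on day 14 (adjusted p = 0.000473). The day 14 fall passed in all scalings except none, where it was -0.24 (adjusted p = 0.164), and was -0.51 without day 14 replicate 3 (adjusted p = 0.0039). The day 1 fall of 0.35 ± 0.12 (adjusted p = 0.021) did not pass without day 14 replicate 3 (-0.13), with the 75th percentile over all miRNAs (-0.17) or from the deposited values (-0.20).

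The clustered neighbour rno-miR-30d did not pass on day 1 and was lower from day 4. It was at -0.61, -0.52 and -0.40 on day 0 and at -0.46, -0.25 and -0.41 on day 1. Its levels were -1.18, -1.27 and -1.18 on day 4, -1.19, -1.23 and -1.25 on day 7, and -1.23, -0.64 and -1.05 on day 14. Days 0 and 1 overlapped, and every later array lay below both, by a narrow margin on day 14 replicate 2. On day 1 the change was 0.14 ± 0.13, with an interval of -0.14 to 0.41. It passed as a rise with the 75th percentile over all miRNAs (0.31, adjusted p = 0.00899), under quantile scaling (0.38, adjusted p = 0.00598) and by the deposited values (0.45, adjusted p = 0.00516), and was -0.01 with no scaling. It also passed as a rise without day 14 replicate 3 (0.35, adjusted p = 0.0387). The fall was 0.70 ± 0.13 on day 4 (1.62-fold lower, adjusted p = 0.000305), 0.72 ± 0.13 on day 7 (adjusted p = 0.000265) and 0.46 ± 0.13 on day 14 (adjusted p = 0.00575). The last was lost on leaving out day 14 replicate 3 (-0.33, adjusted p = 0.0657), with the 75th percentile over all miRNAs (-0.11) or with no scaling (-0.08). It was also lost with outlier spots kept (-0.38, adjusted p = 0.0622) and with only the 2 groups in the model (adjusted p = 0.0585).

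**Figure D1:**
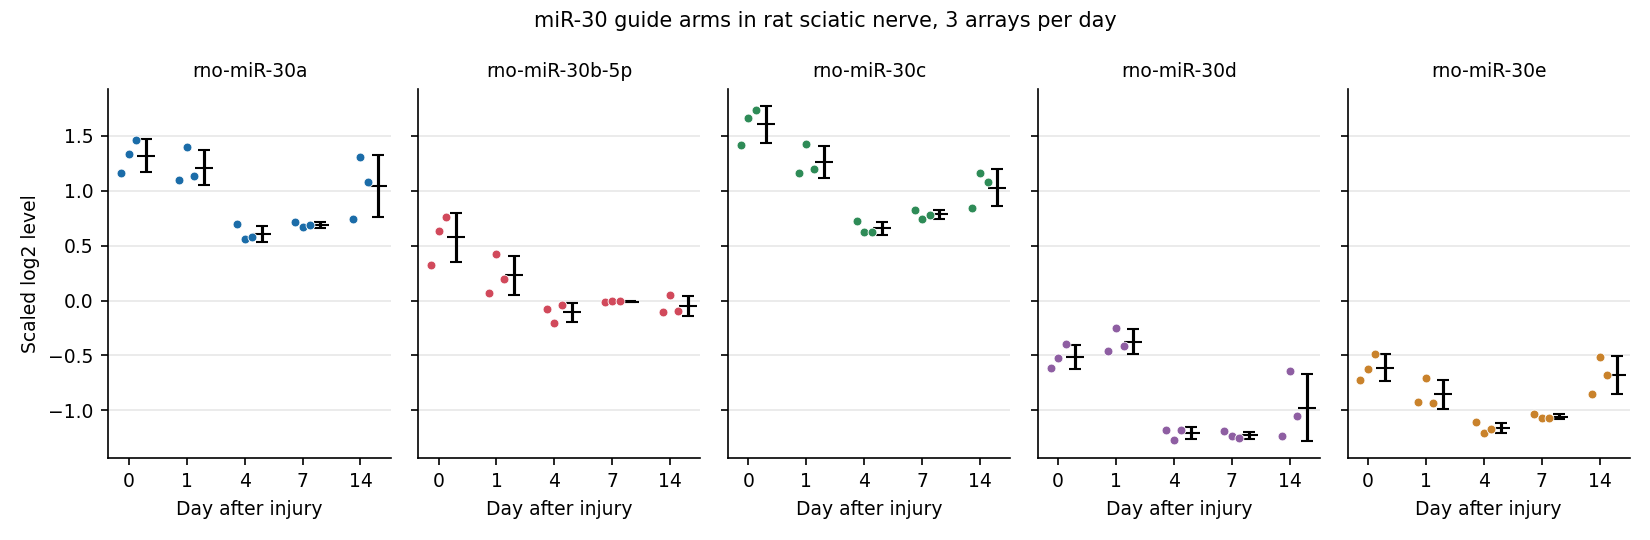
Scaled log2 level (y axis) of each of the 5 guides on each array (coloured points, 3 per day) against the day after injury (x axis), with the group mean and SD in black beside the points. Days 4 and 7 lie below days 0 and 1 for every guide, and the day 14 arrays spread more widely than those of day 7.

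Set against the other miRNAs, the share of guides that fell was above the array's share on days 4 and 7 and near it on days 1 and 14. On day 1, 2 of 5 guides were lower, where 43.7% of all tested miRNAs were lower. On day 4 the count was 5 of 5 against 45.5%, on day 7 it was 5 of 5 against 45.5%, and on day 14 it was 3 of 5 against 50.6%. No guide was called higher than on day 0 at any time in this scaling. The median change of the guides was -0.24 on day 1, -0.70 on day 4, -0.63 on day 7 and -0.46 on day 14. Over all tested miRNAs it was -0.26, -0.26, -0.32 and -0.37. Without day 14 replicate 3, which also enters the choice of miRNAs for the percentile, the medians over all 234 miRNAs then tested were -0.04, -0.11, -0.16 and -0.26, and those of the guides -0.03, -0.55, -0.47 and -0.33. The day 1 calls over all miRNAs were 101 lower and 39 higher with that array and 68 lower and 58 higher without it. Guides lower without it numbered 0, 5, 5 and 2 of 5 on the 4 days, against 29.1%, 36.8%, 37.2% and 39.3% of all. The scaling set this overall level: with the 75th percentile over all miRNAs the medians of all tested miRNAs were -0.08, 0.05, 0.04 and -0.01, and on day 4 the calls over all miRNAs divided into 74 lower and 74 higher, against 105 lower and 47 higher in the main scaling. The median of the guides minus that of all miRNAs on day 4 was -0.44 in the main scaling, -0.44 with that percentile, -0.30 with quantile normalisation and -0.31 by the deposited values. The F test over the 5 times called all 5 guides, as it did 86.1% of all tested miRNAs.

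**Figure D2:**
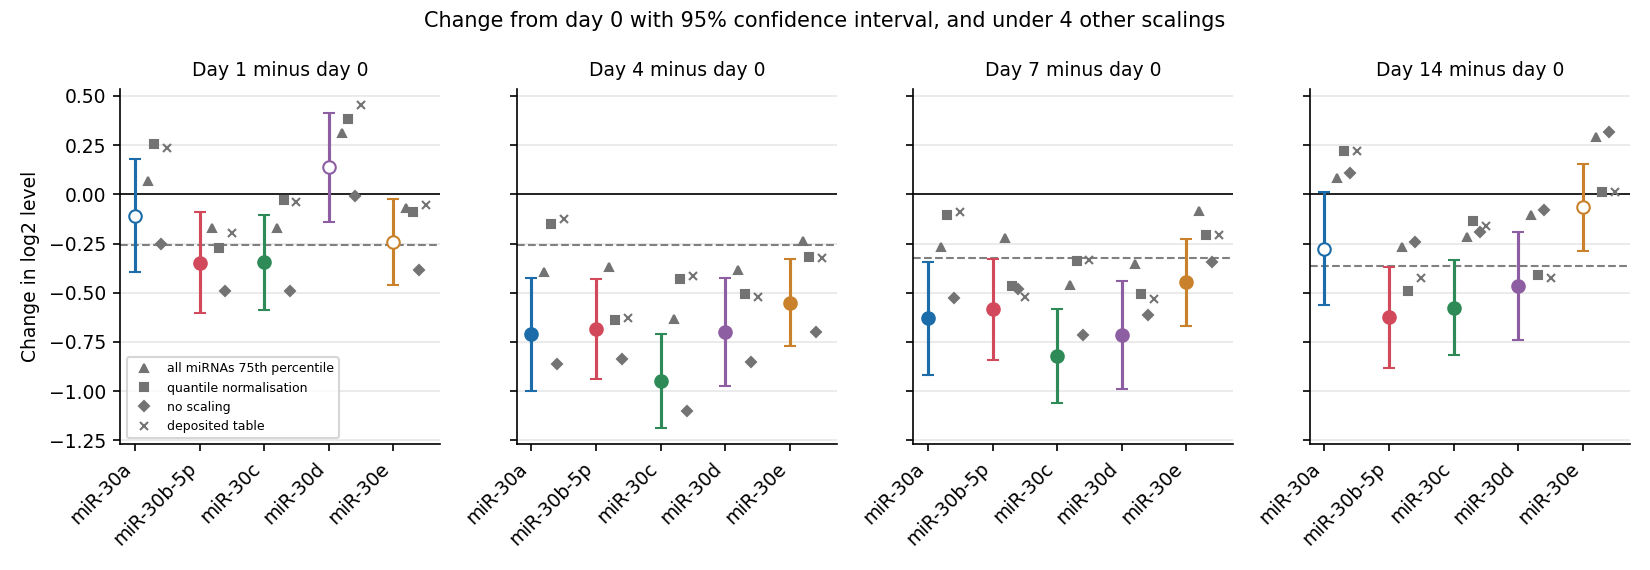
Change in log2 level from day 0 (y axis) of each guide (x axis) on days 1, 4, 7 and 14, as coloured circles with 95% confidence intervals, filled where the adjusted p was under 0.05, with grey symbols for 4 other scalings and a dashed line at the median of all tested miRNAs. On day 4 all circles and grey symbols are below 0, whereas on days 1 and 14 rno-miR-30a and rno-miR-30e have symbols on both sides of 0 or close to it.

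Each guide is read by 2 probes, which gave 10 probes for the family. Tested singly, all 10 probes were lower on day 4 with an adjusted p under 0.05, where 38.8% of the 531 probes tested were. All 10 were also called lower on day 7, against 39.5% of all probes, 6 on day 14 against 42.2%, and 3 on day 1 against 37.1%. The 2 probes of rno-miR-30c had changes of -0.94 and -0.98 on day 4, and those of rno-miR-30e -0.54 and -0.58. The 2 probes of rno-miR-30a had the same day 4 change, -0.71, and differed on day 1, with -0.17 for the brighter and 0.00 for the dimmer.

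Between consecutive times, the largest step down in the main scaling lay between day 1 and day 4 for every guide except rno-miR-30b-5p. That guide fell by 0.35 from day 0 to day 1 and by 0.34 from day 1 to day 4. With no scaling rno-miR-30e also fell more in the first step (-0.39 against -0.32). From day 1 to day 4 all 5 guides fell, where 23.8% of all tested miRNAs were lower. In each guide no array of day 4 reached any of day 1, but the share of all miRNAs without such overlap was not counted. The fall was 0.84 ± 0.13 for rno-miR-30d (1.78-fold lower, adjusted p = 0.000185), 0.60 ± 0.13 for rno-miR-30a (adjusted p = 0.00235) and 0.60 ± 0.11 for rno-miR-30c (adjusted p = 0.000695). It was smaller for rno-miR-30b-5p, 0.34 ± 0.12 (adjusted p = 0.03), and rno-miR-30e, 0.31 ± 0.10 (adjusted p = 0.0242). These last 2 did not pass without day 1 replicate 2 (-0.24 and -0.23) or without day 4 replicate 2 (-0.29 each). The falls of rno-miR-30a, rno-miR-30c, rno-miR-30d and rno-miR-30e passed in all 5 scalings and that of rno-miR-30b-5p in 4.

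Days 4 and 7, scanned on the same date on different slides, did not differ detectably. Their differences ran from -0.02 for rno-miR-30d to 0.13 for rno-miR-30c and none passed, while 6.06% of all tested miRNAs passed in either direction. The widest confidence interval, that of rno-miR-30a, was -0.21 to 0.37, and that of rno-miR-30d was -0.29 to 0.26.

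From day 4 to day 14, 3 guides rose: rno-miR-30e by 0.48 ± 0.10 (adjusted p = 0.00291), rno-miR-30a by 0.43 ± 0.13 (adjusted p = 0.0214) and rno-miR-30c by 0.37 ± 0.11 (adjusted p = 0.0192). Of all tested miRNAs, 13.9% were higher. In each of the 3 guides all day 14 arrays lay above all day 4 arrays, and the rise passed in all 5 scalings. How many of all miRNAs lacked overlap between these days was not counted. The share of all miRNAs higher moved with the scaling, to 25.5% where the 75th percentile came from every miRNA, 18.2% with quantile normalisation, 14.3% in the deposited table and 57.1% with no scaling, where all 5 guides passed. With outlier spots kept only that of rno-miR-30e passed, where 6.06% of all were higher, and with only the 2 groups in the model that of rno-miR-30a was lost (adjusted p = 0.0548). The 2 guides of the Mir30b and Mir30d pair did not pass in the main scaling: rno-miR-30b-5p had 0.06 ± 0.12 with an interval of -0.20 to 0.31, and rno-miR-30d had 0.23 ± 0.13 with an interval of -0.04 to 0.51. The rise of rno-miR-30d did pass in limma where the 75th percentile came from every miRNA (0.28, adjusted p = 0.0215). It also passed without day 14 replicate 1 (0.36, adjusted p = 0.0343), so the division between the guides depends on the processing. Within the scan date that both days share, which leaves out day 14 replicate 3, rno-miR-30e had 0.43 ± 0.12 (adjusted p = 0.0188), rno-miR-30a 0.36 ± 0.15 (adjusted p = 0.0954) and rno-miR-30c 0.29 ± 0.13 (adjusted p = 0.0985), and 7.26% of all miRNAs were higher. Only rno-miR-30e also passed without day 4 replicate 2, without day 4 replicate 3 and without day 14 replicate 2. Between day 7 and day 14 only rno-miR-30e rose in the main scaling, by 0.38 ± 0.10 (adjusted p = 0.0258), where 4.76% of all tested miRNAs were higher. That call was lost on leaving out any array of day 7 or day 14 replicate 2 or 3 (adjusted p of 0.0747 to 0.132), while without day 14 replicate 1 the count of guides that rose was 3. With quantile normalisation the call passed from rno-miR-30e (0.22, adjusted p = 0.0836) to rno-miR-30a (0.33, adjusted p = 0.0358), and in the deposited table no guide passed. With no scaling 4 guides passed, where 31.2% of all miRNAs did, and 3 passed where the 75th percentile came from every miRNA, against 14.3% of all.

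Ordered by group mean, most steps between neighbouring times did not pass the test. For rno-miR-30a the order from high to low was day 0, 1, 14, 7 and 4, and none of the 4 neighbouring steps passed. The order was the same for rno-miR-30c, with only the step from day 0 to day 1 passing. For rno-miR-30b-5p it was day 0, 1, 7, 14 and 4, again with only the first step passing. For rno-miR-30d it was day 1, 0, 14, 4 and 7, with only the step from day 0 to day 14 passing. For rno-miR-30e it was day 0, 14, 1, 7 and 4, with no neighbouring step passing.

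Ratios between guides on the same array do not depend on the number by which an array is divided, so they ask whether the guides moved by equal amounts, although quantile normalisation does change them. The 10 pairs were tested between the 12 injured arrays and the 3 day 0 arrays by an exact permutation test over 455 splits, two-sided, with Benjamini-Hochberg adjustment over the 10. In 2 pairs the groups did not overlap and the test passed, at the smallest p these splits can give, 0.0022 (adjusted p = 0.011). Both involve rno-miR-30c. The log2 ratio of rno-miR-30a to rno-miR-30c was -0.29 ± 0.04 (SD, n = 3) on day 0 and -0.04 ± 0.07 (SD, n = 12) after injury, 0.24 higher. Its day 0 arrays were at -0.26, -0.33 and -0.28, and the injured arrays ran from -0.11 on day 7 to 0.14 on day 14. The log2 ratio of rno-miR-30c to rno-miR-30e was 2.22 ± 0.07 (SD, n = 3) on day 0 and 1.87 ± 0.16 (SD, n = 12) after injury, 0.35 lower. Its mean change was -0.10 on day 1, -0.40 on day 4, -0.37 on day 7 and -0.51 on day 14. With 1 day 0 array left out, fewer splits remain and neither pair passed (adjusted p = 0.0549 in the exact permutation test), although the differences stayed at 0.22 to 0.26 and at -0.38 to -0.31. The ratio of rno-miR-30a to rno-miR-30c kept its call with quantile normalisation (0.29, adjusted p = 0.0165, exact permutation test) and in the deposited table. That of rno-miR-30c to rno-miR-30e lost it in both, with differences of -0.08 and -0.09. In each of these, 5 pairs passed, and the ratios of rno-miR-30a to rno-miR-30e, rno-miR-30b-5p to rno-miR-30c and rno-miR-30c to rno-miR-30d turned direction, so which guides moved unequally depends on the normalisation.

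The other 8 pairs did not pass on these intensities, and some moved in a way that a single contrast of later and day 0 arrays averages out. The log2 ratio of rno-miR-30d to rno-miR-30e was 0.11, 0.10 and 0.09 on day 0 and was higher on every day 1 array, at 0.46, 0.46 and 0.53. It was then -0.07, -0.07 and -0.01 on day 4, -0.16, -0.16 and -0.18 on day 7, and -0.38, -0.13 and -0.38 on day 14. So rno-miR-30d stood highest against rno-miR-30e on day 1 and lowest, by group mean, on day 14, while the mean over all injured arrays differed from day 0 by -0.11 (adjusted p = 0.645, exact permutation test). The log2 ratio of rno-miR-30b-5p to rno-miR-30e changed little up to day 7, with mean changes of -0.10 to -0.14, and by -0.56 on day 14. The day 14 arrays, at 0.75, 0.56 and 0.58, lay below all others, whose lowest was 0.99. By time, these ratios are descriptions with no test.

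**Figure D3:**
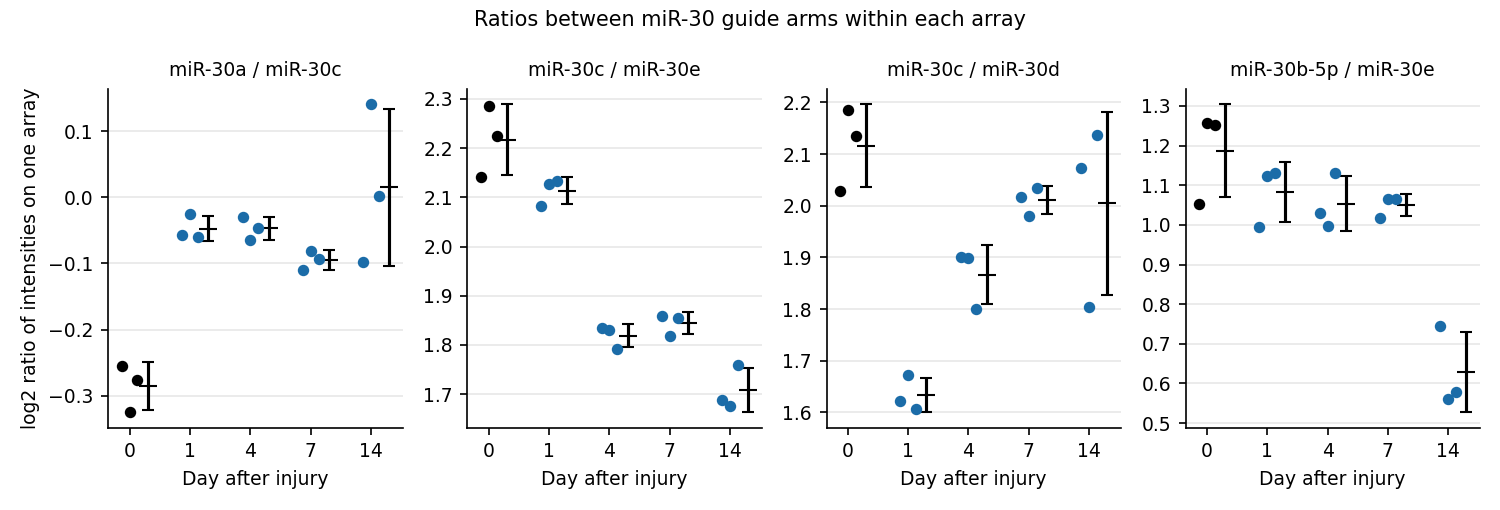
Log2 ratio of the intensities of 2 guides on the same array (y axis) against day after injury (x axis) for 4 of the 10 pairs, with day 0 arrays in black, injured arrays in blue, and group mean and SD beside them. The day 0 arrays lie apart from all injured arrays for rno-miR-30a to rno-miR-30c and for rno-miR-30c to rno-miR-30e, and the day 14 arrays lie apart for rno-miR-30b-5p to rno-miR-30e.

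The passenger arms are a further readout of the same precursors. The hairpin of Mir30a, chr9:33233941-33234011 on the plus strand of GRCr8, is shown with both arms in capitals, the guide first. The 2 passenger arms of the miR-30c hairpins are shown with bases 2 to 8 in capitals, since those bases are shared between them and differ from the guide's seed.
Mir30a: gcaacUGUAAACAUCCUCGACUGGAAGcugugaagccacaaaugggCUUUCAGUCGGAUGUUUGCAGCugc
rno-miR-30c-1*: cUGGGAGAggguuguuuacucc
rno-miR-30c-2*: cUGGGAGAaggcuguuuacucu
The arms rno-miR-30b-3p and rno-miR-30d* were detected on 0 of 15 arrays and were not tested. The arm rno-miR-30a* was at -1.92, -1.83 and -1.71 on day 0, -2.43, -2.11 and -2.31 on day 1, -2.66, -2.75 and -2.81 on day 4, -2.52, -2.65 and -2.61 on day 7, and -2.59, -2.12 and -2.24 on day 14. All injured arrays lay below all day 0 arrays. Its fall was 0.46 ± 0.12 on day 1, 0.92 ± 0.12 on day 4, 0.77 ± 0.12 on day 7 and 0.50 ± 0.12 on day 14, with adjusted p from 1.89e-05 to 0.005.

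The arm rno-miR-30e* fell by 0.46 ± 0.10, 0.90 ± 0.10, 0.74 ± 0.10 and 0.51 ± 0.10 on days 1, 4, 7 and 14 (adjusted p from 6.26e-06 to 0.00153), also without overlap with day 0. These are larger falls than those of the guides from the same hairpins, 0.71 for rno-miR-30a and 0.55 for rno-miR-30e on day 4. Accordingly the within-array log2 ratio of rno-miR-30a to rno-miR-30a* was 3.08 to 3.18 on day 0 and 3.24 to 3.53 on the injured arrays, and that of rno-miR-30e to rno-miR-30e* was 1.72 to 1.79 on day 0 and 1.93 to 2.30 after injury. In both, every injured array lay above every day 0 array. These ratios were not tested, and their size also reflects how the probes bind.

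The arm rno-miR-30c-2*, dimmer, with group mean intensities of 11.5 to 23.9, was lower by 0.89 ± 0.13 on day 4, 0.93 ± 0.13 on day 7 and 0.67 ± 0.13 on day 14 (adjusted p = 0.0006 on day 14, where it was detected on 2 of 3 arrays). On day 1 its change was -0.15 ± 0.13. The arm rno-miR-30c-1* took another course close to background, at mean intensities of 6.99 to 23.8. It was 1.31 ± 0.29 above day 0 on day 1 (adjusted p = 0.00148) and 0.84 ± 0.29 above it on day 7 (adjusted p = 0.0202). It was 0.84 ± 0.29 below it on day 14 (adjusted p = 0.0184), where it was detected on 2 of 3 arrays, and its day 4 change of -0.42 did not pass. Day 14 replicates 1 and 2, on the same slide as the day 7 arrays (-4.87, -5.23 and -5.10), were at -6.48 and -6.53. The part of spot background in these values was not tested.

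The seed-sharing miRNA rno-miR-384-5p was at -3.40, -3.18 and -3.02 on day 0 and at -3.55, -3.65 and -3.71 on day 4. It fell by 0.44 ± 0.13 on day 4 (adjusted p = 0.0104) and by 0.49 ± 0.13 on day 7 (adjusted p = 0.00581). The changes on day 1, -0.13 ± 0.13, and on day 14, -0.18 ± 0.13, did not pass. It is the only other array name found with this seed among the 68 names that the sequence table holds word for word.

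**Figure D4:**
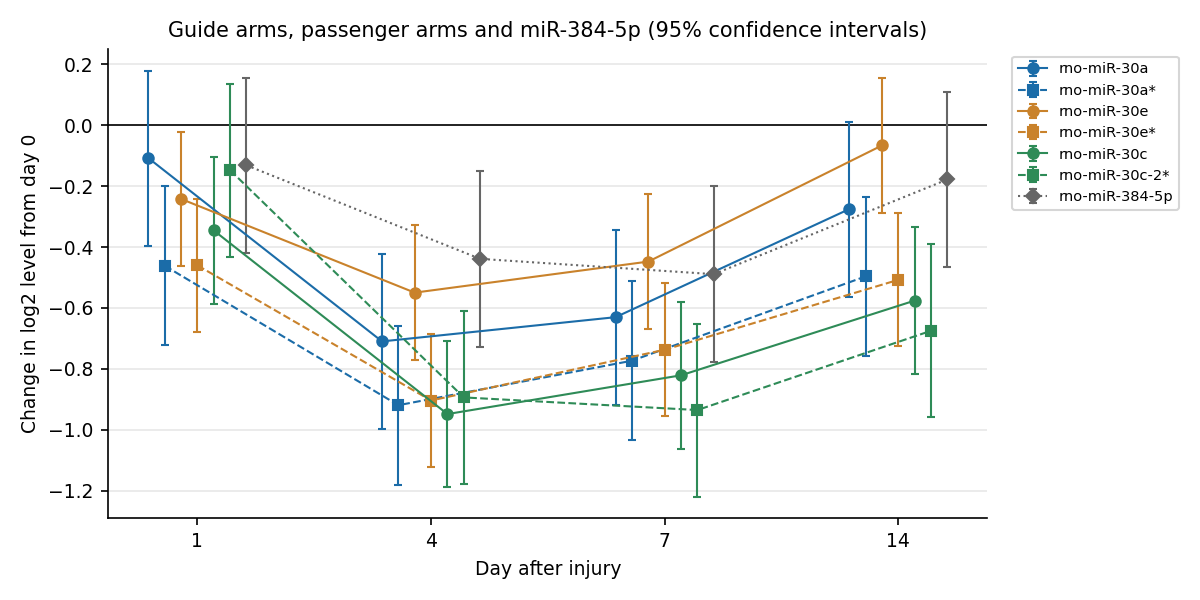
Change in log2 level from day 0 with 95% confidence intervals (y axis) on days 1, 4, 7 and 14 (x axis) for 3 guides (solid lines), a passenger arm from a hairpin of each (dashed lines) and rno-miR-384-5p (dotted line). The arms rno-miR-30a* and rno-miR-30e* lie below their guides at all 4 times.

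Other than the 5 guides, the miRNAs whose level over the 15 arrays was most like the mean of the 5 guides were rno-miR-26a (Pearson r = 0.977), the family's own passenger arms rno-miR-30a* (0.953) and rno-miR-30e* (0.943), rno-miR-320 (0.94) and rno-miR-331 (0.94), of 159 candidates detected on all arrays. All points share arrays and scaling, so r is a description. For rno-miR-26a, which is known to repress the histone methyltransferase Ezh2, the changes were -0.29 ± 0.12 on day 1, -0.71 ± 0.12 on day 4, -0.70 ± 0.12 on day 7 and -0.34 ± 0.12 on day 14, of which the last 3 passed. Among the guides themselves, r ran from 0.689 for rno-miR-30b-5p with rno-miR-30e to 0.951 for rno-miR-30a with rno-miR-30c.

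Related miRNAs did not all follow the guides. Among 7 linked to extracellular matrix through collagen or connective tissue growth factor targets (the miR-29, miR-133 and miR-26 families), 2 were lower and 2 higher on day 4, where 45.5% of all tested miRNAs were lower and 20.3% higher. Their median change was -0.71, the value of rno-miR-26a, against -0.26 over all. The miR-133 members are also in the skeletal muscle list below, whose summed intensity varied widely between the day 0 arrays, from 0.74 to 16.3. Of the 7, rno-miR-26b was lower by 1.04 ± 0.10, and rno-miR-29b, which targets collagens, was higher by 1.01 ± 0.11. Among 4 linked to fibroblast activation, 3 were higher and 1 lower, with a median of 0.40. They include rno-miR-21, which rises in many injured tissues, higher by 3.03 ± 0.12, rno-miR-214 by 0.50 ± 0.10 and rno-miR-199a-5p by 0.30 ± 0.11. In let-7, a family that drives differentiation, 8 of 8 members were lower on day 4, with a median of -0.79; rno-miR-98 was at -0.90 ± 0.10, rno-let-7d at -0.77 ± 0.10 and rno-let-7c at -0.91 ± 0.10.

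Some markers of cell types in nerve moved over the same days. On day 4, 45.5% of all tested miRNAs were lower and 20.3% higher, so a list near these shares does not stand out from the array. In bulk tissue, fewer cells of a type and less RNA per cell cannot be told apart. Of 4 tested markers of myelinating glia 3 were lower on day 4, and the summed scaled intensity of the 5 listed was 16.9 to 25.9 on day 0 and 8.74 to 10.3 on day 4. The leukocyte list had 3 of 5 higher and 1 lower, with sums of 1.62 to 1.92 on day 0 and 2.87 to 3.23 on day 4. Endothelium had 1 of 2 lower, with sums of 3.16 to 3.45 and 2.73 to 3.01. Skeletal muscle had 2 of 5 lower, with sums of 0.74 to 16.3 and 0.45 to 0.56. Smooth muscle and fibroblast markers had 3 of 5 lower and 2 higher, with sums of 9.97 to 11.4 and 8.63 to 9.47, and neuron markers 2 of 5 lower and 1 higher, with sums of 1.48 to 2.01 and 1.10 to 1.24. Erythrocyte markers had 0 of 2 called, with sums of 0.73 to 3.98 and 1.72 to 3.70. On day 14, 4 of 4 tested glial markers were lower, at sums of 10.3 to 13.9, where 50.6% of all tested miRNAs were lower. The part of these shifts in the fall of the guides was not tested. As a check of the tissue label, in the glial list rno-miR-338, rno-miR-138, rno-miR-204 and rno-miR-211 were detected on all 3 day 0 arrays and rno-miR-219-5p on 1. Of 6 epithelial markers, rno-miR-200a, rno-miR-200b, rno-miR-200c and rno-miR-141 were detected on 0 of 15 arrays, whereas rno-miR-205 was detected on 15 and rno-miR-203 on 14, both on all 3 day 0 arrays.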

How the data were processed

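The deposited array files give spot intensity values, background-subtracted and without scaling across arrays, produced by Agilent Feature Extraction, version 10.7.3.1, per the file headers. Values in the authors' deposited table were taken to be log2, judged from the values alone. They looked quantile-normalised above a lowest value that differs by array, and served as an alternative. The column median was 4.28 on 14 arrays and 0.834 on day 14 replicate 3, where 178 of 349 miRNAs were at that lowest value; centring is unknown. No genome was used: sequences are from RefSeq on GRCr8, and the array annotation uses an older build.

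Spots that were outliers or controls were dropped. Spots were averaged per probe, and probes per miRNA. The scaling divisor was each array's 75th percentile over 164 miRNAs, those detected on every one of the 15 arrays; values were floored at 0.00362, and log2 was taken. A miRNA was tested if detected in all 3 arrays of some group, which 231 were. The test was limma 3.58.1 (R 4.3.3), two-sided, fitting 5 group means with no covariate. Ratios were tested by exact permutation in Python 3.11.15 with numpy 2.4.6. No spot was saturated. Precision is limited by 3 arrays per group.

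The members and lists were chosen with earlier results of these data known. Named beyond the 5 members were the passenger arms, seed-sharing miRNAs, the 5 most alike in level, and up to 3 per related list by day 14 adjusted p. Over 30 pairs of same-numbered arrays, deviations correlated from -0.78 to 0.59 and above 0.1 in 8. The main model therefore used no pairing by replicate number, although with 3 arrays per group these correlations cannot exclude one. Alternatives covered scaling, source, background, filter, outlier spots, probes, slide, scan date, replicate number and leaving out each array. The files hold no mean spot signal, so normexp (offset 50) used the median signal. Alternatives for day 14 against day 4, and quantile normalisation for the ratios, were chosen after seeing the data. The limma step was tested on simulated data.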

Additional observations from a re-analysis of the deposited data

Results flagged for a closer look

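The change from day 0 differed between day 4 and day 1 in all 5 guides (limma contrast of the 2 times, adjusted over 231 miRNAs). It is the same comparison of day 4 with day 1 as above, where 23.8% of all tested miRNAs were lower and 27.7% higher. The difference was -0.60 for rno-miR-30a (adjusted p = 0.00235), -0.34 for rno-miR-30b-5p (0.03), -0.60 for rno-miR-30c (0.000695), -0.84 for rno-miR-30d (0.000185) and -0.31 for rno-miR-30e (0.0242), lower on 3 of 3 day 4 arrays than on any day 1 array. The change also differed between day 14 and day 4, by 0.43 for rno-miR-30a (adjusted p = 0.0214), 0.37 for rno-miR-30c (0.0192) and 0.48 for rno-miR-30e (0.00291), and between day 14 and day 7 by 0.38 for rno-miR-30e (0.0258). In each of these, 3 of 3 day 14 arrays were higher than any array of the earlier time. The share of all miRNAs without overlap was not counted for any of these comparisons. Of all tested miRNAs, 13.9% were higher on day 14 than on day 4, and 4.76% were higher than on day 7. No test for single outlying samples was made within a group of 3 arrays, since that needs at least 4. Day 14 replicate 3 stood apart by its count of detected miRNAs, by 5.67% outlier spots and by a mean negative control signal of -8.54. On the other arrays the last 2 values were 2.66% to 4.17% and -1.03 to 1.19. That array was also alone on its slide and scan date.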

How the results depend on the processing

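Guides called lower on day 1 numbered 2 in the main analysis, 1 with a 75th percentile taken over all miRNAs, 1 with quantile normalisation, and 0 from the deposited table, with outlier spots kept and with only the 2 groups compared in the model; guides called higher numbered 0, and 1, 2 and 1 with that percentile, quantile normalisation and the table. Of all tested miRNAs, 43.7%, 36.8%, 37.7%, 26.5%, 33.3% and 34.2% were lower on day 1 in these settings, in the order given. The shares higher on day 1 were 16.9% in the main analysis, 24.7% with that percentile, 24.7% with quantile normalisation and 20.9% in the table. On day 4, 4 guides were lower with quantile normalisation and 4 in the table, against 5, where 37.7% and 33% of all were lower. The table gave 3 lower on day 7 against 5, where 26.5% of all were lower against 45.5%. That percentile and quantile normalisation each gave 4 lower on day 7, where 27.3% and 32% of all were lower. On day 14 there were 0 lower without scaling against 3, and 1 higher both with that percentile and without scaling. Of all tested miRNAs, 18.2% were then lower without scaling against 50.6%. With that percentile, quantile normalisation, the table, outlier spots kept and 2 groups, 2 guides each were lower on day 14. The shares of all miRNAs lower there were 23.4%, 36.4%, 30%, 31.2% and 39.4%. The shares higher on day 14 were 30.3% with that percentile and 27.7% without scaling. From day 1 to 4, 3 guides were lower with outlier spots kept, where 10.8% of all miRNAs were lower. From day 7 to 14 the guides higher were 3 with that percentile, 4 without scaling and 0 in the table, with outlier spots kept and with 2 groups. From day 4 to 14 the guides higher were 5 without scaling and 1 with outlier spots kept. They were 4 with that percentile, where 25.5% of all miRNAs were higher, and 2 with 2 groups, where 13% were. Without scaling, 31.2% and 57.1% of all miRNAs were higher in these 2 comparisons. Pairs with unequal change were 5 in the table and 5 with quantile normalisation.

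Directions turned as follows. On day 1, rno-miR-30a was at 0.066 with that percentile, 0.26 with quantile normalisation (adjusted p = 0.0356), 0.23 in the table and 0.0027 by its dimmer probe, and rno-miR-30d at -0.0067 without scaling. On day 14, rno-miR-30a was at 0.083, 0.22, 0.11 and 0.22 with that percentile, quantile normalisation, no scaling and the table. With these rno-miR-30e was at 0.29, 0.010, 0.32 and 0.011, and at 0.024 with outlier spots kept. From day 4 to 7 rno-miR-30d was at 0.032, 0.24 and 0.022 with that percentile, no scaling and its dimmer probe. From day 7 to 14 rno-miR-30b-5p was at 0.24 without scaling and 0.095 in the table, and from day 4 to 14 at -0.028 by its dimmer probe. The log2 ratio of rno-miR-30a to rno-miR-30d was -0.030 with normexp. In the table those of rno-miR-30a to rno-miR-30e, rno-miR-30b-5p to rno-miR-30c and rno-miR-30c to rno-miR-30d were 0.20, -0.20 and 0.018, and with quantile normalisation 0.21, -0.23 and 0.027. The causes were not tested.

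Leaving out each array gave 0 to 3 guides lower on day 1, with 0 without day 0 replicate 3, day 1 replicate 1 or 3, or day 14 replicate 3, and 0 to 1 higher. It gave 3 to 5 lower from day 1 to 4, 0 to 3 higher from day 7 to 14, 1 to 4 higher from day 4 to 14 and 0 to 2 pairs. Of these runs, shares over all miRNAs are given only without day 14 replicate 3, where 24.8% were higher on day 1. Changes ran from -0.20 to 0.10 for rno-miR-30a on day 1, -0.15 to 0.025 for rno-miR-30e on day 14 and -0.048 to 0.00021 for rno-miR-30d from day 4 to 7, and the rno-miR-30a to rno-miR-30d ratio from -0.024 to 0.031. The 5 falls on days 4 and 7 kept their count in every such run. With the replicate block, 3 guides were lower on day 1, 5 on days 4 and 7 and 3 on day 14. The labels give same-numbered samples only that number in common. Of all changes of single guides over the alternatives, 1124 kept direction and side of the threshold, 63 lost and 29 gained the call, and 24 turned. Signal over background did not limit the guides. Slide and time cannot be told apart for days 0, 1 and 4.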
